A study of Mus musculus with 12 samples.

Results

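The genes described here serve protein folding in the endoplasmic reticulum (ER) and the unfolded protein response (UPR). There are 34 of them, listed by symbol, among the 18193 genes that the annotation of the array names through single-gene probe sets. Each gene was read from the probe set that varied most over the 12 arrays, and 33 of the 34 passed the filter on low SD (at least 0.151) that left 12500 genes for testing. Trib3, a pseudokinase gene of the stress response, had an SD of 0.144, just under the filter, and its group means lay between -0.029 and 0.064, so it was not tested. The ER folds and glycosylates secreted and membrane proteins with the help of chaperones, lectins and disulfide isomerases, and hands misfolded chains to ER-associated degradation (ERAD), which moves them to the cytosol. When unfolded protein builds up, the sensors IRE1 (Ern1), PERK (Eif2ak3) and ATF6 act through the factors XBP1, ATF4 and cleaved ATF6, which raise transcription of chaperone, ERAD and amino acid supply genes. Granulosa cells secrete inhibins, activins and matrix proteins, and the preovulatory surge of luteinizing hormone changes what they secrete.

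RNA came from granulosa cells labelled as C57BL/6J;129S5/SvEvBrd mice, either wild type or Inha-/-. Inha encodes the inhibin alpha subunit, and the labels name no promoter or Cre, so the allele is taken as absent from the whole animal. All mice were 21 days old and received 5 IU of PMSG, a gonadotropin with FSH-like action, for 44 to 46 h. Of the 4 groups, 2 (1 of each genotype) then received 5 IU of hCG, which acts on the LH receptor, for 6 h. Each group had 3 arrays, which the design text calls independent samples without naming the animals, so p values measure the spread between these samples. The cells were freed by puncturing antral follicles and were not sorted. Values are on a log2 scale and centred on each probe set's median over the 12 arrays, so a value of 0 is the middle of the 12 arrays for that gene and levels cannot be compared between genes.

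Inha itself was read first. It lay at 5.62, 5.62 and 5.87 on the wild-type arrays after PMSG and -7.38, -5.40 and -7.25 on the knockout arrays, and at 5.52, 5.40 and 5.42 against -7.35, -7.35 and -7.40 after hCG, with no overlap. Replicate arrays correlated with r of 0.21 to 0.83 over the 12500 tested genes, and array SDs over all probe sets lay between 0.371 and 0.727. The scan names hold a running serial number with a wide gap: 7 arrays have early and 5 have late numbers, the late ones being knockout replicate 3 of the PMSG group and, in each hCG group, replicates 2 and 3. The scan names hold another number, which replicate 1 of both genotypes after PMSG share, as do replicate 2 of both and wild-type hCG replicates 2 and 3. Centred values do not show whether a marker is present, so the cell type was checked by differences. Of 9 granulosa markers, 8 were lower after hCG in wild type (array medians -1.67 to -0.85, against 0.365 to 0.611 before) and none in the knockout. Markers of oocytes (array medians -1.69 to -0.644 in wild type, 0.634 to 3.16 in the knockout) and of theca and stroma (-1.14 to -0.426 against 0.427 to 2.33) did not overlap between genotypes. Of 12 oocyte markers 7 were higher in the knockout after PMSG and 9 after hCG. Of 13 theca and stroma markers 6 and 8 were higher, among them Acta2, Myh11 and collagen genes. The 1 lower after PMSG was Cyp17a1 (-2.94). Surface epithelium markers ran the other way (5 of 10 lower in the knockout at both times), and no leukocyte (12), endothelial (9) or red blood cell (4) marker passed the test in any contrast. Of 4 plasma and B cell markers, Sdc1 was called after hCG (3.23 in wild type and 1.74 in the knockout) and between genotypes after hCG (-0.99). For comparison, 6.19% of all tested genes were called between genotypes after PMSG and 21.4% after hCG. For the hCG response 22.1% were called in wild type and 2.67% in the knockout. In tissue samples such as these, fewer cells of a type and less RNA per cell cannot be told apart, and the part these cells have in the results below was not tested.

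In wild type, 10 of the 33 ER genes changed after hCG (30.3%), against 22.1% of all tested genes, by limma with Benjamini-Hochberg adjusted p under 0.05. Of these, 7 fell (21.2% of the ER genes, with 12.2% of all genes lower) and 3 rose (9.09%, with 9.87% of all genes higher). None of the 33 changed after hCG in the knockout, where 2.67% of all genes did. Between genotypes after hCG, 7 differed (21.2%, with 21.4% of all genes called): 5 were higher in the knockout (15.2%, with 12.5% of all genes) and 2 lower (6.06%, with 8.83%). After PMSG alone 1 gene differed (3.03%, with 6.19% of all genes called), and it was lower (3.21% of all genes were lower). The share of ER genes called between genotypes after hCG was thus close to that of all genes. The hCG response in wild type and the contrast of genotypes after hCG share the 3 wild-type hCG arrays.

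Shifts of the list as a whole are given as medians. After hCG in wild type the median of the 33 was -0.31 on the log2 scale, with 23 negative and 10 positive, and the median of all tested genes was -0.063. The same medians for the hCG response of the knockout were 0.064 and -0.029. The knockout minus wild type medians were -0.24 against 0.02 after PMSG and 0.30 against 0.035 after hCG. Per array, the median of the 33 genes was 0.0896, 0.110 and 0.124 in wild type after PMSG and -0.102, -0.241 and -0.189 in wild type after hCG. In the knockout it was -0.025, 0.105 and 0.0136 after PMSG and -0.0816, -0.00607 and 0.145 after hCG. The 3 wild-type arrays after hCG were the lowest of the 12.

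**Figure D1:**
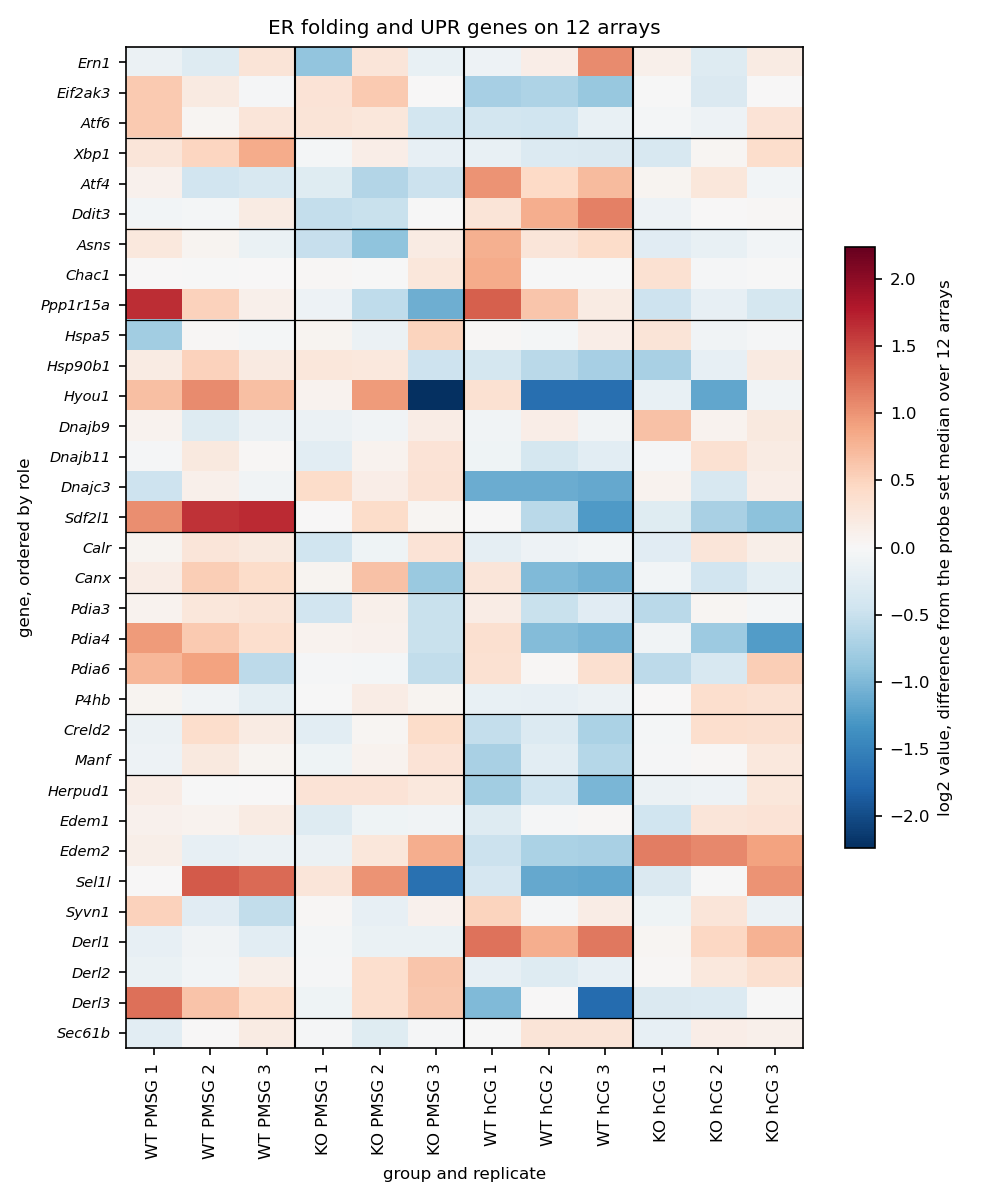
Centred log2 value of each ER folding and UPR gene (rows, grouped by role) on each of the 12 arrays (columns, by group and replicate), as a colour scale around 0. The wild-type hCG columns hold the lowest array medians of the 33 tested genes (-0.102, -0.241 and -0.189), and Sdf2l1 stands above 1 in the wild-type PMSG columns (1.05, 1.61 and 1.67).

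The HSP70 and HSP90 chaperones with their cochaperones held 3 of the 7 falls in wild type after hCG, and none of these 7 chaperone genes rose. Sdf2l1, an ER-resident partner of the BiP and J-protein complex, lay at 1.05, 1.61 and 1.67 after PMSG and -0.014, -0.60 and -1.27 after hCG, so the arrays did not overlap. Its log2 fold change was -2.07 ± 0.32 (SE, n = 3 against 3; adjusted p = 0.00103, limma), a 4.20-fold fall and the largest among the ER genes called. Dnajc3, which encodes the BiP cochaperone p58IPK and can restrain PERK, fell from -0.46, 0.11 and -0.076 to -1.11, -1.11 and -1.14. That is -0.98 ± 0.20 (adjusted p = 0.00595), and its 4 other probe sets gave -0.97 to -0.48. The 3 hCG arrays of Dnajc3 were the lowest of the 12. Hsp90b1, the ER member of the HSP90 family known as GRP94, fell from 0.18, 0.51 and 0.20 to -0.39, -0.61 and -0.75, or -0.88 ± 0.27 (adjusted p = 0.0379), with -0.38 from its other probe set.

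Hspa5, which encodes BiP, the central ER chaperone, was not called, and its probe sets differed in sign. The probe set of largest SD gave 0.31, while the other 2 gave -0.45 and -0.33. Hyou1, a nucleotide exchange factor for BiP, gave -1.81 ± 0.74 (adjusted p = 0.105), and the J-protein genes Dnajb9 and Dnajb11 gave 0.11 and -0.31. The lectin chaperones, which hold glycoproteins during folding, gave -0.96 (Canx, adjusted p = 0.110) and -0.31 (Calr). Among the disulfide isomerases, Pdia4 gave -1.18 ± 0.40 (adjusted p = 0.0527), Pdia3 -0.40, Pdia6 -0.11 and P4hb -0.088. None of the lectin chaperone or isomerase genes passed the test in any of the contrasts.

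Of the 3 sensors of the UPR, Eif2ak3 fell in wild type after hCG, from 0.59, 0.20 and -0.032 to -0.74, -0.69 and -0.85. Its log2 fold change was -1.01 ± 0.22 (adjusted p = 0.00678), but its other 2 probe sets, which varied little over the arrays (SD 0.11), both gave about -0.02. Atf6 gave -0.64 (adjusted p = 0.0749) and Ern1 0.40 (adjusted p = 0.470), and neither passed the test. Xbp1, the factor spliced by IRE1, fell from 0.28, 0.47 and 0.84 to -0.17, -0.31 and -0.33, or -0.80 ± 0.23 (adjusted p = 0.0265). Its other probe sets gave -0.46, -0.23 and 0.35, and the arrays measure total Xbp1 RNA, not its splicing.

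The factors of the PERK branch rose in the same arrays. Atf4, whose protein turns on amino acid supply genes, rose from 0.090, -0.42 and -0.35 after PMSG to 1.0, 0.45 and 0.70 after hCG. That is 0.94 ± 0.21 (adjusted p = 0.00897), with 0.98 and -0.23 from its other probe sets. Ddit3, which encodes CHOP, went from -0.053, -0.050 and 0.19 to 0.28, 0.81 and 1.12, or 0.71 ± 0.23 (adjusted p = 0.0497), and its other probe set gave -0.38. Their downstream genes on the list did not pass: Asns, asparagine synthetase, gave 0.44, Ppp1r15a, the phosphatase subunit GADD34, -0.040, and Chac1, which degrades glutathione, 0.26. Chac1 stood at 0.82 on wild-type hCG replicate 1 and at -0.015 and -0.012 on the others.

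ERAD genes went both ways in wild type after hCG, with 2 of 8 down and 1 up. Derl3, a derlin of the channel that exports misfolded proteins, fell from 1.23, 0.64 and 0.40 to -0.99, 0.014 and -1.73. The fall was -1.66 ± 0.39 (adjusted p = 0.0104), and the 3 hCG arrays spread widely. Herpud1, an ER membrane protein that binds the HRD1 ligase, fell from 0.17, -0.00089 and 0.00089 to -0.79, -0.45 and -1.02, or -0.81 ± 0.19 (adjusted p = 0.0116), with -0.84 from its other probe set. Derl1, a second derlin gene, rose from -0.18, -0.082 and -0.24 to 1.21, 0.81 and 1.17. Its rise of 1.23 ± 0.21 (adjusted p = 0.00201) was 2.35-fold, and its 3 other probe sets gave 0.47 to 0.91. Derl2 gave -0.20, the ligase gene Syvn1 0.31, and the mannose-trimming genes Edem1 and Edem2 -0.22 and -0.57. Sel1l, the partner of that ligase, gave -1.78 ± 0.63 (adjusted p = 0.0641), and its 4 other probe sets gave -1.76 to -0.81. The secreted stress proteins Creld2 and Manf missed the threshold at -0.66 (adjusted p = 0.0610) and -0.59 (adjusted p = 0.0528), and Sec61b, a translocon subunit, gave 0.21.

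**Figure D2:**
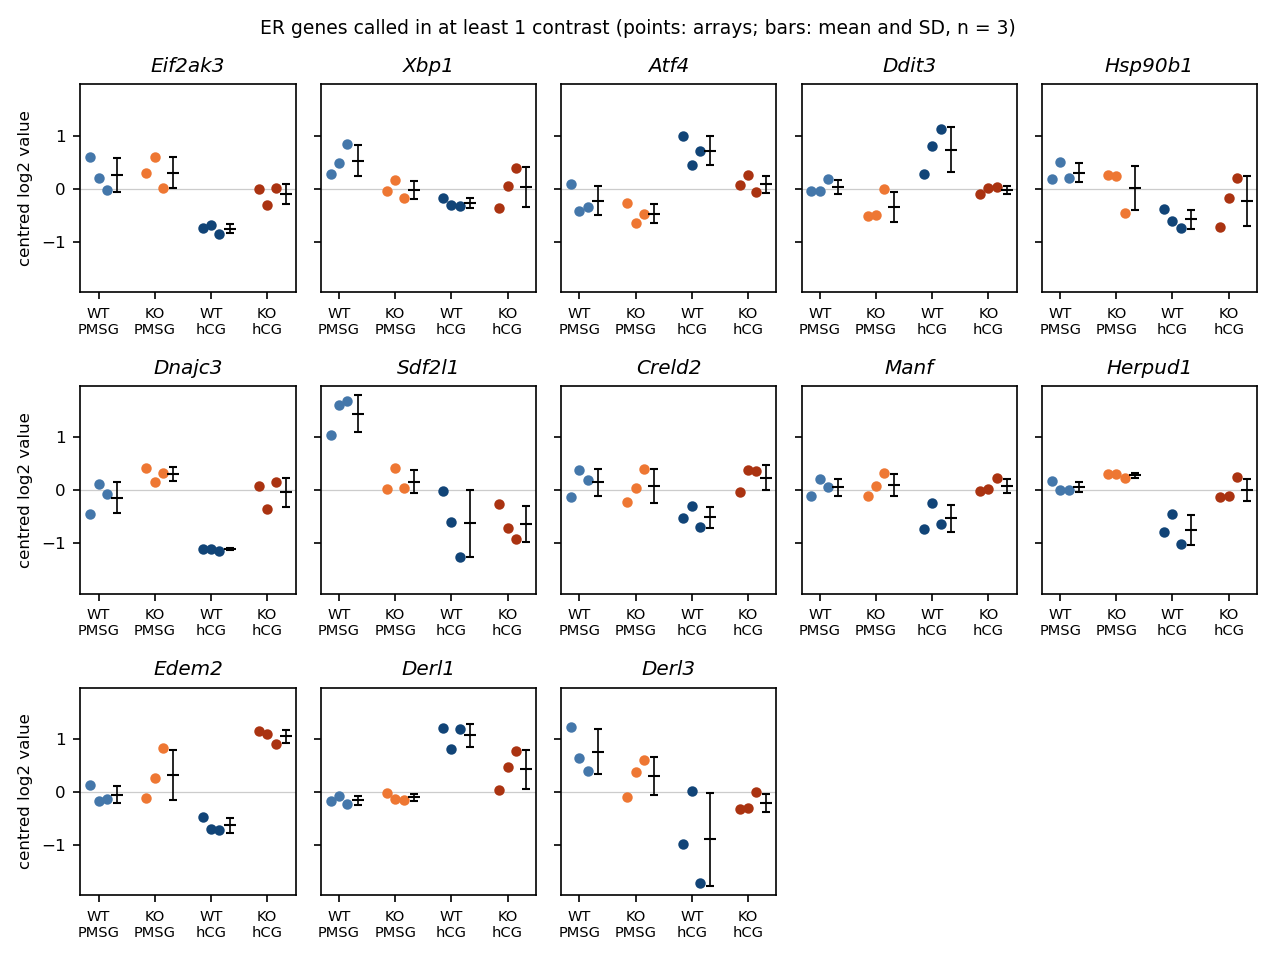
Centred log2 values (y axis) of the ER genes called in at least 1 contrast, 1 point per array, with the mean and SD of each of the 4 groups beside its points (n = 3 arrays). Dnajc3, Herpud1 and Eif2ak3 are lowest in wild type after hCG, while Derl1 is highest in wild type after hCG (1.21, 0.81 and 1.17). A difference in hCG response between genotypes was not called for these genes.

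The calls for Sdf2l1, Dnajc3, Derl1, Derl3, Eif2ak3 and Atf4 held when each of the 12 arrays was left out in turn. Without wild-type hCG replicate 3 the count fell from 10 to 6, and the calls of Herpud1 (-0.67, adjusted p = 0.0550), Xbp1, Hsp90b1 and Ddit3 were lost. Without knockout PMSG replicate 3, an array used here only for the shared variance, it was 16. Xbp1 was also lost without wild-type PMSG replicates 2 or 3 or hCG replicate 2 (-0.83 to -0.65 over all its losses), Hsp90b1 without any of the 6 arrays compared or without knockout hCG replicate 2 (-0.97 to -0.77), and Ddit3 in 10 of the 12 omissions (0.52 to 0.79). All wild-type PMSG arrays have early serial numbers, while wild-type hCG replicates 2 and 3 have late ones. With the serial class as a covariate, Xbp1 (-0.84), Hsp90b1 (-0.82) and Ddit3 (0.42) were not called, while Creld2 (-0.87) and Manf (-0.76) were. With early arrays only, where the hCG group is the single replicate 1 and is assumed to vary like the other groups, the 7 falling genes gave -1.75 to -0.69 and the 3 rising genes 0.25 to 1.37, and the count was 3 (Derl1, Herpud1 and, at 0.82, Chac1). With the array name number as a random block, Ddit3 (0.63) and Hsp90b1 (-0.82) were not called. With the mean of a gene's probe sets, Eif2ak3 (-0.35), Xbp1 (-0.28) and Ddit3 (0.16) were not called.

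A group of genes with large but uncalled values moved with the serial number of the array. Hyou1 lay at 0.34, -1.68 and -1.69 in wild type after hCG and at 0.082, 0.95 and -2.23 in the knockout after PMSG. The late arrays of these groups (replicates 2 and 3, and replicate 3) were the low ones, and late minus early was -2.02 and -2.75 in the respective groups. The same differences were -1.29 and -1.19 for Canx, -1.35 and -0.59 for Pdia4 and -0.78 and -2.31 for Sel1l. Sel1l did not follow it in the knockout after hCG, where the arrays read -0.33, -0.0061 and 1.01. Hyou1 read -0.16, -1.16 and -0.082 there, so late replicate 3 was not below early replicate 1. Among the 10 genes called in wild type after hCG, the late minus early difference in that group ran from -0.92 (Sdf2l1) to 0.68 (Ddit3), with -0.42 for Atf4 and -0.018 for Dnajc3. Eif2ak3 gave -0.028 and -0.43 in wild type after hCG and the knockout after PMSG. With the serial class as a covariate the hCG responses in wild type were -0.64 for Hyou1, -0.35 for Canx, -0.54 for Pdia4 and -1.27 for Sel1l, against -1.81, -0.96, -1.18 and -1.78 without it. The sources used here do not say what the serial number stands for.

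**Figure D3:**
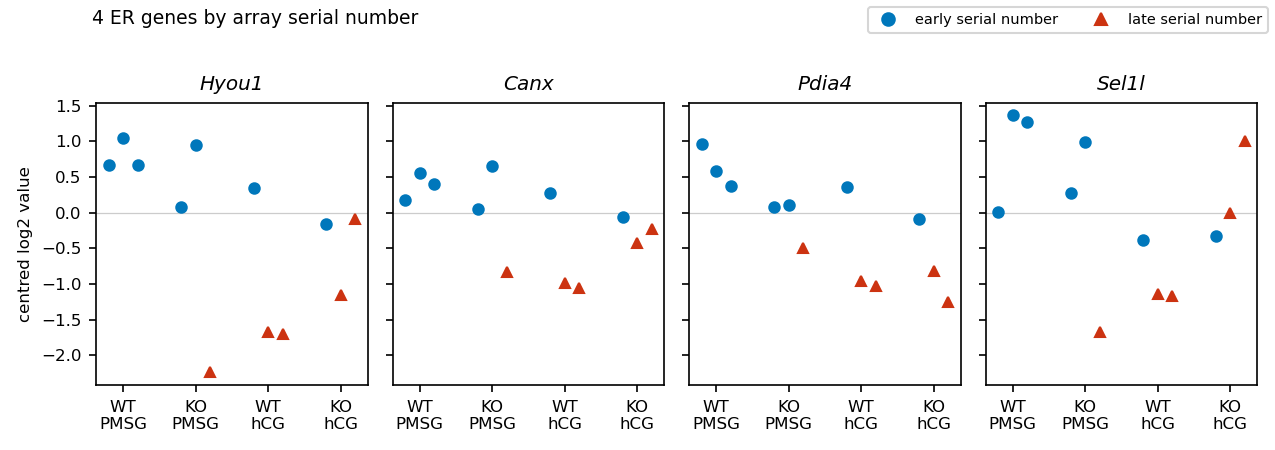
Centred log2 values (y axis) of Hyou1, Canx, Pdia4 and Sel1l on the 12 arrays, with arrays of early and late serial numbers marked apart within each group. In wild type after hCG and in the knockout after PMSG the late arrays lie below the early ones, as for Hyou1 (-1.68 and -1.69 against 0.34).

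Promoters of some of the genes that fell in wild type after hCG are shown to set their UPR motifs beside their response. The ER stress response element (ERSE: CCAAT, any 9 bases, CCACG) and ERSE-II (ATTGG, any 1 base, CCACG) are the elements read by ATF6 and XBP1. They were searched on both strands of RefSeq promoters (GRCm38.p6, 250 bases before to 50 after the start), which 30 of the 34 genes matched. Either was present in 11 of the 30 (36.7%) and in 0.181% of the 27025 genes with a promoter. The genes were listed for known ER and UPR roles, so this difference in shares is not a finding. ERSE was found in Hspa5, Hsp90b1, Dnajc3, Calr, Canx, Pdia6, Creld2, Syvn1 and Derl3, and ERSE-II in Dnajb11 and Herpud1. Capitals below mark the fixed letters of a match, also where it lies on the other strand. Hspa5 is shown as the textbook case (chr2:34771840-34772139, plus strand), with its ERSE at positions -65 to -47 from the start. Hsp90b1 (chr10:86705395-86705694, minus strand) has a pair of matches, Dnajc3 (chr14:118937682-118937981, plus strand) and Derl3 (chr10:75893148-75893447, plus strand) have 1 each, and Herpud1 (chr8:94386179-94386478, plus strand) has an ERSE-II and, in its other capitals, a CARE. Sdf2l1 (chr16:17132334-17132633, minus strand), the gene with the largest called fall, had none of the 5 motifs searched in this window. Nor did Xbp1 and Eif2ak3, which also fell and are not shown.
Hspa5: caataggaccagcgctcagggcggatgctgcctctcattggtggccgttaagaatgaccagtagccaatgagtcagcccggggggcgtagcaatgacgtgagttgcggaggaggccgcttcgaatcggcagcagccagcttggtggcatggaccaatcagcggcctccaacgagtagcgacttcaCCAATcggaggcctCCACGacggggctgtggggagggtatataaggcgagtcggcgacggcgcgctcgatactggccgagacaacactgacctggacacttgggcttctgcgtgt
Hsp90b1: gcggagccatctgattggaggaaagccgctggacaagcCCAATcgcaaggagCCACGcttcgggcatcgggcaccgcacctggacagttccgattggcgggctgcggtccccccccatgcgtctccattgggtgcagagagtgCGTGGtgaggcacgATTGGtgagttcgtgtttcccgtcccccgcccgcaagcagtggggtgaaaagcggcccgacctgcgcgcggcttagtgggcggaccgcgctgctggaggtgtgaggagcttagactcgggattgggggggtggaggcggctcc
Dnajc3: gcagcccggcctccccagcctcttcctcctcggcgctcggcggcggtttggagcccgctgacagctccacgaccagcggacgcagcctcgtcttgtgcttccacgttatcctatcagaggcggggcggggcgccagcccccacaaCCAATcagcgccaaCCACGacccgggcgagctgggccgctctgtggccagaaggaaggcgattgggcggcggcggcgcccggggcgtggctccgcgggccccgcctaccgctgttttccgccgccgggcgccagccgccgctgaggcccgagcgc
Derl3: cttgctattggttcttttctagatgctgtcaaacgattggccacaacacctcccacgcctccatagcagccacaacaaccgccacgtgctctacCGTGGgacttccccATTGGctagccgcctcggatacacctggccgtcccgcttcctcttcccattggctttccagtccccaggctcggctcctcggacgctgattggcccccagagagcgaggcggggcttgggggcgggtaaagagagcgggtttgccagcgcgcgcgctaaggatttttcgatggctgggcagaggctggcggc
Herpud1: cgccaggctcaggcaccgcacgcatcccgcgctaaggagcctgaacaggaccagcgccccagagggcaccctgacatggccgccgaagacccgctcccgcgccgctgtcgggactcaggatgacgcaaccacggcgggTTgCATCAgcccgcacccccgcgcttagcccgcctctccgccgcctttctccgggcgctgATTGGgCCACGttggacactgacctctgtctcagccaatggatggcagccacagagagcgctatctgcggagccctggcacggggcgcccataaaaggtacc
Sdf2l1: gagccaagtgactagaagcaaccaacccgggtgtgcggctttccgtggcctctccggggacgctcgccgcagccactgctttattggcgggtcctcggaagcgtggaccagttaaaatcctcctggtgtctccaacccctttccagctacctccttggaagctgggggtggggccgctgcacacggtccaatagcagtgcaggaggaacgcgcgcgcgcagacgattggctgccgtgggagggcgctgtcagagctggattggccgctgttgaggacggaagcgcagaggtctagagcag

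Of the 11 genes with either element, 9 were negative in wild type after hCG, 4 were called lower (Hsp90b1, Dnajc3, Derl3 and Herpud1) and none higher, with a median of -0.66. The 18 tested genes with a promoter and neither element had a median of -0.14, with 3 lower and 2 higher. Between genotypes after hCG, the median of the 11 was 0.35 and that of the 18 was -0.01. These medians describe the genes and were not tested. The UPRE (TGACGTGG) was in none of the 30 promoters and in 0.714% of all. The CARE (TGATGNAA), the element read by ATF4, was in Asns, Trib3, Chac1 and Herpud1 (13.3% of the 30, 4.51% of all). The CRE (TGACGTCA, a palindrome that shares its first 6 letters with the UPRE) was in Ppp1r15a alone (2.03% of all). A match is a run of letters and not a measured binding site.

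In the knockout none of the 33 genes was called after hCG, while 334 of all tested genes (2.67%) were, 306 of them higher and 28 lower (344 and 98 after a further quantile normalization). At an unadjusted p under 0.05, 4 ER genes passed in the knockout (12.4% of all genes), and 18 in wild type (34.6% of all genes). The fold changes of the knockout lay between -0.80 (Sdf2l1) and 0.73 (Edem2, adjusted p = 0.193). For the 7 genes that fell in wild type they were -0.80 ± 0.32 (Sdf2l1), -0.51 (Derl3), -0.41 (Eif2ak3), -0.34 (Dnajc3), -0.27 (Herpud1), -0.24 (Hsp90b1) and 0.053 (Xbp1). For the 3 that rose in wild type they were 0.55 (Atf4), 0.53 (Derl1) and 0.33 (Ddit3). These 10 genes were picked by their size in wild type, so smaller values here are not a finding.

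The difference between these responses was tested as an interaction, in which none of the 33 was called and 2.09% of all genes were (7 ER genes at an unadjusted p under 0.05, 14.9% of all genes). The smallest adjusted p was that of Edem2, at 1.30 ± 0.33 (adjusted p = 0.0747). It was called without knockout PMSG replicate 3 (1.55, adjusted p = 0.0175), where its rise after hCG in the knockout was called too (0.98, adjusted p = 0.0261). With array weights the interaction of Edem2 was called as well (1.26, adjusted p = 0.0208). The interaction was 1.28 ± 0.45 for Sdf2l1 (adjusted p = 0.199), 0.64 ± 0.29 for Dnajc3 and -0.70 ± 0.30 for Derl1. A different response in the knockout is therefore not shown for any of these 33 genes in the unweighted fit to all 12 arrays. Creld1, a relative of Creld2 outside the 33, passed this test at 1.06 ± 0.24 (adjusted p = 0.0445), a call kept in 1 of the 12 omissions of an array.

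**Figure D4:**
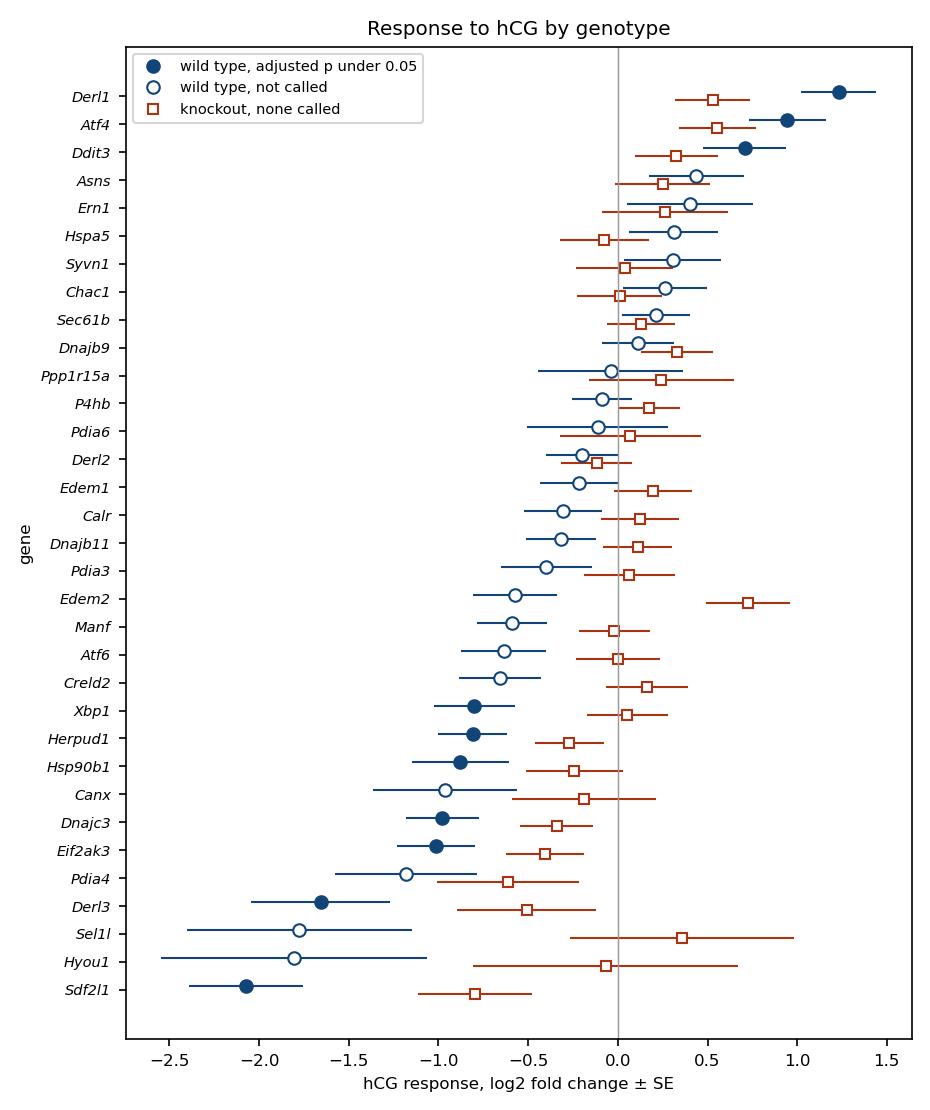
The log2 fold change after hCG (x axis, bars are SE) of the 33 tested ER genes (rows), in wild type (circles, filled where the adjusted p is under 0.05) and in the knockout (squares). Sdf2l1 lies at -2.07 in wild type and -0.80 in the knockout, Derl1 at 1.23 and 0.53, and Edem2 at -0.57 and 0.73.

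After hCG the genotypes differed in 7 ER genes. Edem2, which encodes a mannosidase-like protein that starts glycoprotein degradation, stood at 1.14, 1.08 and 0.90 in the knockout and -0.48, -0.71 and -0.72 in wild type. The difference of 1.68 ± 0.23 (adjusted p = 0.000540) was 3.20-fold, and the groups did not overlap. Its other probe set, with an SD of 0.09 over the arrays, gave 0.0030. Dnajc3 lay at 0.076, -0.36 and 0.14 in the knockout against -1.11, -1.11 and -1.14 in wild type, a difference of 1.08 ± 0.20 (adjusted p = 0.00339), with 0.38 to 0.67 from its other probe sets. Herpud1 lay at -0.12, -0.11 and 0.25 against -0.79, -0.45 and -1.02, or 0.76 ± 0.19 (adjusted p = 0.0166).

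Creld2 and Manf, small proteins of the ER lumen that are released under stress, were also higher in the knockout. Creld2 read -0.039, 0.38 and 0.37 against -0.53, -0.30 and -0.70 (0.75 ± 0.23, adjusted p = 0.0375). Manf read -0.019, 0.019 and 0.23 against -0.73, -0.24 and -0.64 (0.61 ± 0.20, adjusted p = 0.0468). Lower in the knockout were Ddit3, at -0.11, 0.017 and 0.034 against 0.28, 0.81 and 1.12 (-0.75 ± 0.23, adjusted p = 0.0393), and Derl1, at 0.035, 0.45 and 0.77 against 1.21, 0.81 and 1.17 (-0.64 ± 0.21, adjusted p = 0.0477). The other probe set of Ddit3 gave 0.14, and those of Derl1 -0.36 to -0.09. The knockout and wild-type arrays did not overlap for any of these 7 genes. Nor did they for Eif2ak3, Atf6, Atf4, Asns, Ppp1r15a, Dnajb11, P4hb, Sel1l and Derl2, which were not called. A lack of overlap therefore does not set the 7 apart, and its share over all genes was not counted. In the same contrast 4 of 9 granulosa, 9 of 12 oocyte and 8 of 13 theca and stroma markers were higher in the knockout, and their part in these differences was not tested.

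Near the threshold were Eif2ak3 (0.65, adjusted p = 0.0525), Atf4 (-0.63, adjusted p = 0.0555) and Ppp1r15a (-1.06, adjusted p = 0.0834). Asns gave -0.65 and P4hb 0.41, Derl3 0.69 and Sel1l 1.12, the last with the wide spread described above. Sdf2l1 did not differ between genotypes beyond its spread after hCG (-0.0068 ± 0.32), and the BiP probe sets gave 0.019, 0.47 and 0.26. The remaining members lay between -0.38 (Pdia6) and 0.54 (Hyou1).

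The calls of Edem2 and Dnajc3 held when each of the 12 arrays was left out, and the others did not. Without wild-type hCG replicate 3 the count fell from 7 to 2, and it was 3 without wild-type PMSG replicate 3 or without knockout hCG replicate 2 or 3, and 4 without wild-type PMSG replicate 2, wild-type hCG replicate 1 or knockout hCG replicate 1. Herpud1 was lost without replicate 3 of either hCG group (0.62 and 0.63), Creld2 in 5 omissions (0.65 to 0.75), Manf in 9 (0.52 to 0.66), Ddit3 in 7 (-0.78 to -0.56) and Derl1 in 9 (-0.66 to -0.45). Within the early arrays (1 of each genotype) and within the late arrays (2 of each), the differences were 1.62 and 1.71 for Edem2, 1.19 and 1.02 for Dnajc3, and 0.66 and 0.80 for Herpud1. They were 0.49 and 0.87 for Creld2, 0.71 and 0.56 for Manf, -0.39 and -0.94 for Ddit3, and -1.17 and -0.38 for Derl1. All 7 kept their sign in both, and Edem2 was the 1 call in the late arrays. With the array name number as a random block, Creld2 (0.75), Manf (0.63), Ddit3 (-0.71) and Derl1 (-0.66) were not called.

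After PMSG alone Sdf2l1 was the ER gene called between genotypes, and it was lower in the knockout. The wild-type arrays stood at 1.05, 1.61 and 1.67 and the knockout arrays at 0.014, 0.42 and 0.047, without overlap. The difference was -1.28 ± 0.32 (SE, n = 3 against 3; adjusted p = 0.0364), or 2.43-fold lower. Its values in the knockout after PMSG lay below those of wild type after PMSG and above those of either genotype after hCG (-0.27, -0.72 and -0.92 in the knockout), though wild-type hCG replicate 1 came close at -0.014. The call was lost without any of the 3 knockout arrays, without wild-type PMSG replicates 2 or 3, and without replicate 2 of either hCG group, where the difference lay between -1.41 and -1.17. Among the early arrays it was -1.23 (adjusted p = 0.111). Ppp1r15a gave the largest difference, -1.35 ± 0.40 (adjusted p = 0.0769), with -0.12, -0.57 and -1.08 in the knockout against 1.64, 0.51 and 0.12. The 12 immediate early and stress genes, counted as a sign of cell handling, had array medians of -0.979 to 1.54 in wild type and -2.24 to -0.5 in the knockout after PMSG, and their part in this difference was not tested. Of these 12, 1 was lower in the knockout after PMSG and 2 after hCG (3.21% and 8.83% of all genes were). After hCG 3 rose in each genotype (9.87% of all genes in wild type, 2.45% in the knockout). Xbp1 gave -0.55 (adjusted p = 0.197), and the remaining genes lay between -1.20 (Hyou1, low on the late knockout array) and 0.44 (Dnajc3).

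A further 137 genes of 6 ER lists, none of them among the 34, were counted beside these. Counts over all genes moved between settings too, with ranges given under the dependence on processing. Changes in the counts of ER genes between settings are therefore not read as particular to these genes. Between genotypes after hCG, 28 of the 137 were higher in the knockout and 3 lower (12.5% and 8.83% of all genes). Without wild-type hCG replicate 3 these were 14 and 2, and without knockout hCG replicate 3 they were 15 and 2. They were 48 and 9 with array weights, 4 and 2 with early arrays only (1 of each genotype) and 11 and 1 with late arrays only. In wild type after hCG 18 of the 137 rose and 18 fell (9.87% and 12.2% of all genes). Of the 18 that rose, 13 belong to the list of ATF4 branch genes described below. Without wild-type hCG replicate 3 the counts were 12 and 5, while the genes lower among all tested went from 1530 to 724. Of 32 other folding and disulfide genes, 12 were higher in the knockout after hCG (37.5%, against 12.5% of all genes) and none lower. Their median was 0.69 (0.035 for all genes). The 12 became 7 without wild-type hCG replicate 3, 6 without knockout hCG replicate 3, and 2 with early arrays only. They include Prdx4, an ER peroxidase that feeds disulfide formation (2.08 ± 0.32, adjusted p = 0.00101), and Cnpy3, a cochaperone of GRP94 (1.44 ± 0.24, adjusted p = 0.00145). In wild type after hCG 9 of the same 32 fell and 1, the membrane thioredoxin gene Tmx1, rose (1.54, adjusted p = 0.00282), with a median of -0.35. The 9 (28.1%, against 12.2% of all genes lower) became 3 without wild-type hCG replicate 3 and with early arrays only. Prdx4 gave -1.05 and Cnpy3 -1.0 there. After PMSG 1 of the 32 was called, Qsox1, a sulfhydryl oxidase gene (-1.90). Creld1, a relative of Creld2, was lower after hCG in wild type (-0.95) and read 0.072, -0.13 and -0.087 before and 0.11, -0.072 and 0.13 after hCG in the knockout.

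Of 22 other ERAD and glycan-trimming genes, 3 were higher in the knockout after hCG: Mogs, the first glucosidase (1.35, adjusted p = 0.000821), Ganab, the second (0.76), and the lectin gene Os9 (1.33), which was also among the 2 that fell in wild type (-1.70), where 1, the ubiquitin-conjugating gene Ube2j1, rose (0.80). Of 19 translocon and signal peptide genes 4 were higher in the knockout, among them Tram2 (1.59) and the signal peptidase subunit Sec11c (0.92), and 2 fell in wild type, both of these genes (-1.72 and -0.75). Of 19 export and retrieval genes 4 were higher in the knockout, including the KDEL receptor Kdelr1 (0.95) and the cargo receptor Surf4 (0.78). No gene of these 3 lists was lower in the knockout after hCG. The shares higher were 13.6%, 21.1% and 21.1%, against 12.5% of all genes, and without wild-type hCG replicate 3 the counts were 1, 2 and 1. In wild type after hCG the shares lower in these 3 lists were 9.09%, 10.5% and 5.26%, against 12.2% of all genes. Of 14 other sensors and factors 2 were higher (14.3%) and 1 lower (7.14%), near the shares of all genes. Atf6b, the relative of ATF6, was higher (1.35, adjusted p = 0.000705) and fell in wild type (-0.89). Creb3 was lower (-1.13) and rose after hCG in both genotypes (1.78 in wild type, 1.47 in the knockout). Creb3l1, a factor of secretory capacity, rose in wild type (2.89, adjusted p = 0.00611). Creb3l3 was higher in the knockout at both times (1.41 and 2.30).

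A list of 31 genes of the ATF4 branch holds stress and transcription factor genes beside amino acid and tRNA synthetase genes. Of these 31, 13 rose after hCG in wild type (41.9%, against 9.87% of all genes), 2 fell and 16 were not called. The median of the 31 was 0.58. Among the 13 are Atf5, Cebpb, Sesn2, Ddit4, Nupr1, Vldlr and Eif4ebp1, which are neither amino acid nor tRNA synthetase genes. Without wild-type hCG replicate 3, 9 rose and none fell. In the knockout 5 rose (2.45% of all genes did) and none fell, with a median of 0.44. Slc7a11, the cystine transporter, rose by 5.75 ± 0.31 in wild type (adjusted p = 3.27e-07) and 4.19 ± 0.31 in the knockout (adjusted p = 1.12e-05), and was lower in the knockout after hCG (-1.57). In that contrast 3 of the 31 were higher and 2 lower (9.68% and 6.45%, near the shares of all genes). The higher ones were the serine and glycine synthesis genes Phgdh (1.19) and Shmt2 (1.01) and the tRNA synthetase gene Eprs (1.01). Nupr1, a stress-induced chromatin protein, rose by 2.91 and 2.15, Vldlr by 2.40 and 1.69, and the serine synthesis gene Psat1 by 2.07 in wild type. These lists were not tested as lists.

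**Figure D5:**
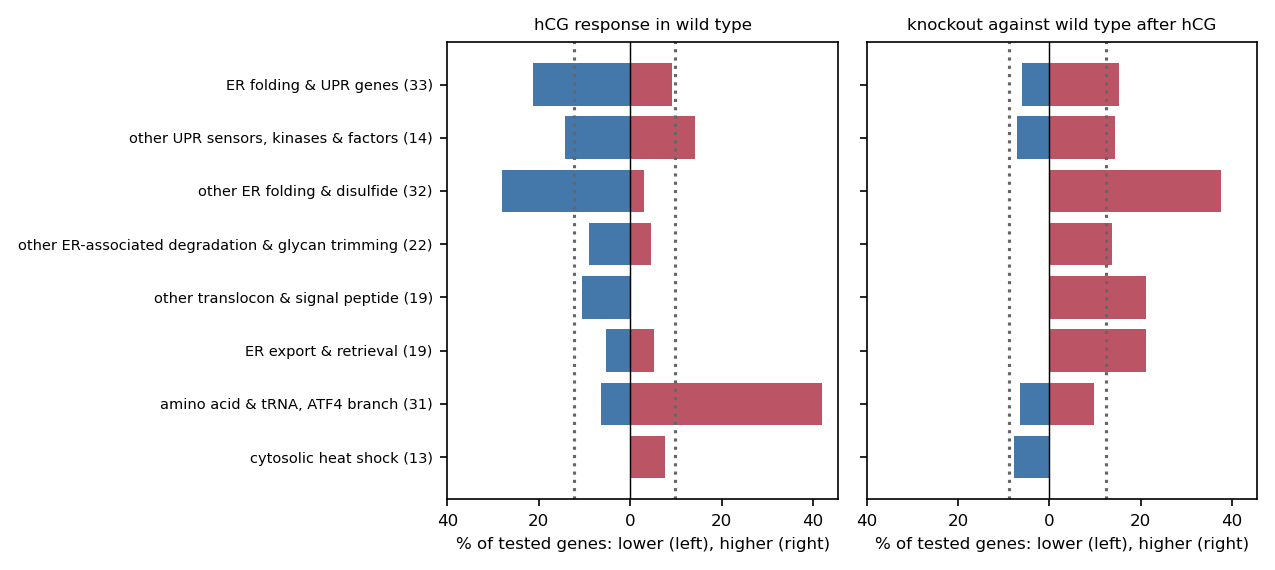
Percent of tested genes called lower (to the left) and higher (to the right) for the 33 ER folding and UPR genes and 7 further lists, with the number tested in brackets, after hCG in wild type (left panel) and between genotypes after hCG (right panel). Dotted lines mark the share of all tested genes (12.2% lower and 9.87% higher on the left, 8.83% and 12.5% on the right), which the other folding and disulfide genes pass on the lower side at left (9 of 32) and on the higher side at right (12 of 32).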

How the data were processed

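RNA of granulosa cells was measured on 12 Affymetrix mouse arrays with 45101 probe sets, and the authors deposited log2 values made with GCRMA, per the submitters' processing notes (version: not given in the sources used here). In the deposited log2 table each probe set has a median of 0 over the 12 arrays (largest absolute median 5e-07), a centring that the labels do not state. The widest probe set spans 13.3 units, more than a 16-bit scan can span in natural logarithms (11.1). Array medians lay between -0.0197 and 0.093. The table held 0 columns of other samples. Titles and characteristics gave each sample's group.

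The 64 control probe sets and 932 that name several genes were left out, and 34945 name a single gene. Each gene was taken from its probe set of largest SD and kept if that SD was in the upper 60% (at least 0.151). This choice favours probe sets that respond, so the other probe sets of a gene (24 of the 34 have more than 1) are given beside it. A group-means model was fitted to all 12 arrays with limma 3.58.1 in R 4.3.3, and a gene was called at a Benjamini-Hochberg adjusted p under 0.05 over the 12500 genes of a contrast. The script was tested on simulated data. The alternatives were no filter, the mean of probe sets, quantile normalization, subtracting array medians, array weights, only the arrays compared, a variance trend, the serial class as covariate, the replicate or name number as block, and leaving out each array, with early or late arrays only added after seeing the data. The number of arrays limits the precision.

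The members and lists were chosen with earlier results of these data known. Members called in at least 1 contrast are given with every array, and of each further list up to 4 genes with the smallest adjusted p. Creld1 and some list genes were named after their values were seen. Other lists were markers of granulosa, oocytes, theca and stroma, surface epithelium, leukocytes, endothelium, red blood cells, plasma and B cells, and handling stress. Protein sequences were not used here.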

Additional observations from a re-analysis of the deposited data

Results flagged for a closer look

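Creld1, a relative of Creld2 on the list of further folding genes, was the 1 gene of the 137 further ER genes called in the interaction test. None of the 33 was called, while 2.09% of all tested genes were, so this 1 call does not set ER genes apart. For Creld1 the response of the knockout minus that of wild type was 1.06 ± 0.24 on the log2 scale (SE, 3 arrays a group, adjusted p = 0.0445 by limma). Wild type read 0.27, 0.57 and 0.41 after PMSG and -0.44, -0.52 and -0.66 after hCG. Leaving out 1 array at a time gave 0.98 to 1.13, with the same sign each time. The call was kept in 1 of these 12 omissions, without wild-type hCG replicate 2, and with early arrays only the value was 0.99. It was lost with quantile normalization (adjusted p = 0.0825), the replicate block (0.0750) and the variance trend (0.0605). The serial class as covariate (0.0589) and the name number block (0.0534) lost it too. It was kept without the SD filter, with the mean of probe sets, with array medians subtracted and with array weights. The value was the same 1.06 in the first 2 of these, so the mean of probe sets is no check across probe sets for this gene.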

How the results depend on the processing

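No called fold change of an ER gene changed sign under any alternative run, but the counts moved. The number of ER genes called between genotypes after PMSG (1) was 0 without the SD filter and with early arrays only, and 2 with the mean of probe sets, quantile normalization, the replicate block and the array name number as a random block, Ppp1r15a being the gene added each time; it ranged from 0 to 1 with 1 array left out. Between genotypes after hCG (7) it was 3 with quantile normalization or the name number block, 4 with only the arrays compared, 12 with array weights, 0 with early and 1 with late arrays only, and 2 to 9 with 1 array left out. In wild type after hCG (10) it was 17 with array weights, 3 with early arrays only and 6 to 16 with 1 array left out. For the hCG response of the knockout (0) and the interaction (0) it ranged from 0 to 1 with 1 array left out, and the interaction gave 1 with array weights (Edem2). Other settings left the counts within 1.5 times. Counts over all genes ranged from 173 to 1106 after PMSG (774), 650 to 3827 between genotypes after hCG (2672), 1229 to 4543 in wild type after hCG (2764), 119 to 442 in the knockout (334) and 72 to 549 for the interaction (261).

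The labels state no pairing by replicate number. Deviations of same-numbered arrays correlated above 0.1 in 6 of 18 pairs (-0.134 to 0.299). Arrays of different numbers were not compared, so these values cannot decide whether samples were paired. The pairs that share a number in the scan names, replicates 1 and 2 of both genotypes after PMSG, gave 0.182 and 0.299. With the replicate block the 5 counts were 2, 8, 12, 0 and 0. Centred values carry no signal over background, so dim probe sets could not be set apart.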

Other observations

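Cytosolic heat shock genes, whose products fold proteins outside the ER, were read as a neighbour of the ER list. Of 13 tested, 1 (7.69%) was called between genotypes after PMSG, between genotypes after hCG and in wild type after hCG, where 6.19%, 21.4% and 22.1% of all genes were. It was Hspb1 each time, the gene of the small heat shock protein HSP27. It was lower in the knockout by -1.75 after PMSG (adjusted p = 0.0124, limma, 3 arrays a group) and by -1.63 after hCG (adjusted p = 0.00634), and it rose by 1.13 after hCG in wild type (adjusted p = 0.0367). The median fold change of the 13 after hCG was 0.24 (wild type) and 0.33 (knockout), against -0.063 and -0.029 for all tested genes.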
